A study of Mus musculus with 42 samples.

Results

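Macrophages and monocytes, and the CSF1 signal that sustains them, are represented here by 9 genes chosen by name. They are the ligand gene Csf1, its receptor gene Csf1r, the surface and lysosomal markers Adgre1, Cd68 and Itgam, the lysozyme gene Lyz2, the endotoxin co-receptor gene Cd14, the fractalkine receptor gene Cx3cr1 and the engulfment receptor gene Mertk. Each was found as 1 row among the 26811 genes of the count table, and all 9 passed the filter on low counts that left 16932 genes. The study asked whether blocking GM-CSF or IL2RB alters how a tumor responds to an antibody against PD-1 (aPD1). It measured poly(A) RNA in 42 bulk tumors of MC38, a mouse colon carcinoma line, grown under the skin of female CC075/UncJ x C57BL/6J F1 mice (CC75xB6), aged 8 to 12 weeks, each injected with MC38 cells.

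The isotype control group (n = 5) received control antibodies throughout. The aPD1 group (n = 6) received control antibodies for the blocking step and then aPD1. The aPD1 + aGMCSF group (n = 9) had GM-CSF blocked with 100 µg per dose, the aPD1 + aIL2RB group (n = 11) had IL2RB blocked with 200 µg per dose, and the aPD1 + aGMCSF + aIL2RB group (n = 11) received both blocking antibodies. Blocking or control antibody was given every 3 days from engraftment until a tumor measured 75 to 110 mm3. A single 200 µg dose of aPD1 or isotype antibody then followed, and tumors were taken 48 hours later. All mice shared 1 F1 genotype and 1 tumor line, and each bulk tumor mixed MC38 cells with host cells.

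CSF1 is the growth factor on which most tissue and tumor macrophages depend for survival and differentiation, and it acts through CSF1R, a receptor tyrosine kinase found mainly on monocytes and macrophages. The transcription factor PU.1, encoded by Spi1, switches on many macrophage genes, Csf1r and Itgam among them. F4/80 (the product of Adgre1), CD68 and CD11b (the product of Itgam) are the usual labels of tumor-infiltrating macrophages, while GM-CSF drives monocytes and granulocytes and IL2RB is the receptor chain through which T and NK cells respond to IL-2 and IL-15.

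Totals ran from 7155486 counts, in aPD1 + aGMCSF + aIL2RB replicate 4, to 24101674, and the next lowest was 15109227. The replicate numbers fall into 2 sets that stand apart in expression: a first set of 22 tumors (isotype control 1 and 2, aPD1 1 to 3, aPD1 + aGMCSF 1 to 5, and up to number 6 in the groups with aIL2RB) and a second set with the other 20. The labels do not say what the sets are, and an earlier analysis of these data drew them. Gene coordinates are those of build GRCm38, GENCODE release M21. Levels are given in CPM, the counts of a gene relative to the total of its tumor as scaled by TMM. Fold changes come from edgeR's quasi-likelihood test, with p-values adjusted over all genes tested by the Benjamini-Hochberg method, and a gene is called at an adjusted p under 0.05.

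The promoters of Cd68 and Itgam are shown because both genes rose with aPD1 and both hold the PU.1 box, and that of Csf1 because it lacks the box and the gene did not pass that test. The sequences are the 250 bases before the RefSeq start in build GRCm38.p6, written 5′ to 3′ on the strand of the gene, with each match to the letters GAGGAA, on either strand, in capitals.
Cd68, chr11:69666171-69666420, minus strand: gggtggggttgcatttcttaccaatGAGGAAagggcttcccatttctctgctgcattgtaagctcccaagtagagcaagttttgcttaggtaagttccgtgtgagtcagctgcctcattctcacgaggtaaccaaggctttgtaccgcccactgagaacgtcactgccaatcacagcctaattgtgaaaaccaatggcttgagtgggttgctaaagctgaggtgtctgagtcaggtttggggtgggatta
Itgam, chr7:128062390-128062639, plus strand: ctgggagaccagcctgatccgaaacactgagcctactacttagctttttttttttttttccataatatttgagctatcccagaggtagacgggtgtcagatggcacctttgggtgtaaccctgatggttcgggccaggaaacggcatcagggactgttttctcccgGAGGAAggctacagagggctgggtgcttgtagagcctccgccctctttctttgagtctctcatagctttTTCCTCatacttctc
Csf1, chr3:107760470-107760719, minus strand: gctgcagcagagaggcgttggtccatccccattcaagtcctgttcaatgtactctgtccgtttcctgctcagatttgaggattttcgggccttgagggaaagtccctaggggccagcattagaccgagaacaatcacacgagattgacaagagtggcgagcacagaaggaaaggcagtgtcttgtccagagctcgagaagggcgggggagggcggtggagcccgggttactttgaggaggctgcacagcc
The box stands 225 bases before the start in Cd68, and 84 bases and, on the opposite strand, 15 bases before the start in Itgam. Promoter windows were at hand for 6 members, and the box was in 2 of the 3 that rose (not in Lyz2) and in 0 of the other 3 (Csf1, Cx3cr1 and Mertk). It is in 23.3% of all 32851 windows of that length, so a match describes the letters and no more.

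With aPD1, 6 of the 9 genes rose over isotype control: Csf1r, Adgre1, Cd68, Itgam, Lyz2 and Cd14. Of all genes tested, 6.17% were called higher in this comparison. The fitted log2 fold changes of the 6 ran from 0.59 to 0.96, and those of Csf1, Cx3cr1 and Mertk from -0.08 to 0.08 with adjusted p of 0.699 or more. The median over the 9 was 0.62, beside -0.0023 over all genes. In bulk tumors a change in the number of macrophages and a change in the RNA of each macrophage cannot be told apart. Ptprc, the gene of the pan-leukocyte antigen CD45, itself rose with aPD1 (log2 fold change 0.97 ± 0.25 SE, adjusted p = 0.013).

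The receptor moved and the ligand did not pass the test. Csf1r (ENSMUSG00000024621, chr18:61100598-61132149) measured 237, 248, 241, 199.6 and 249 CPM in the 5 isotype control tumors, and 274, 353 and 476 CPM at the lowest, the median and the highest of the 6 aPD1 tumors. Every aPD1 tumor lay above every isotype control tumor, and Csf1r was 1.54-fold higher (log2 fold change 0.62 ± 0.10 SE, adjusted p = 0.000356). Csf1 (ENSMUSG00000014599, chr3:107741048-107760469) measured 348, 412, 486, 461 and 451 CPM in isotype control and 402, 434 and 474 CPM at the lowest, median and highest with aPD1. The 2 groups overlapped throughout, and the fitted log2 fold change was 0.01 ± 0.09 SE (adjusted p = 0.957). Across the 5 groups the mean level of Csf1 stayed between 391 and 441 CPM, and its highest tumor exceeded its lowest 1.46-fold, the smallest range of the 9 genes.

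**Figure D1:**
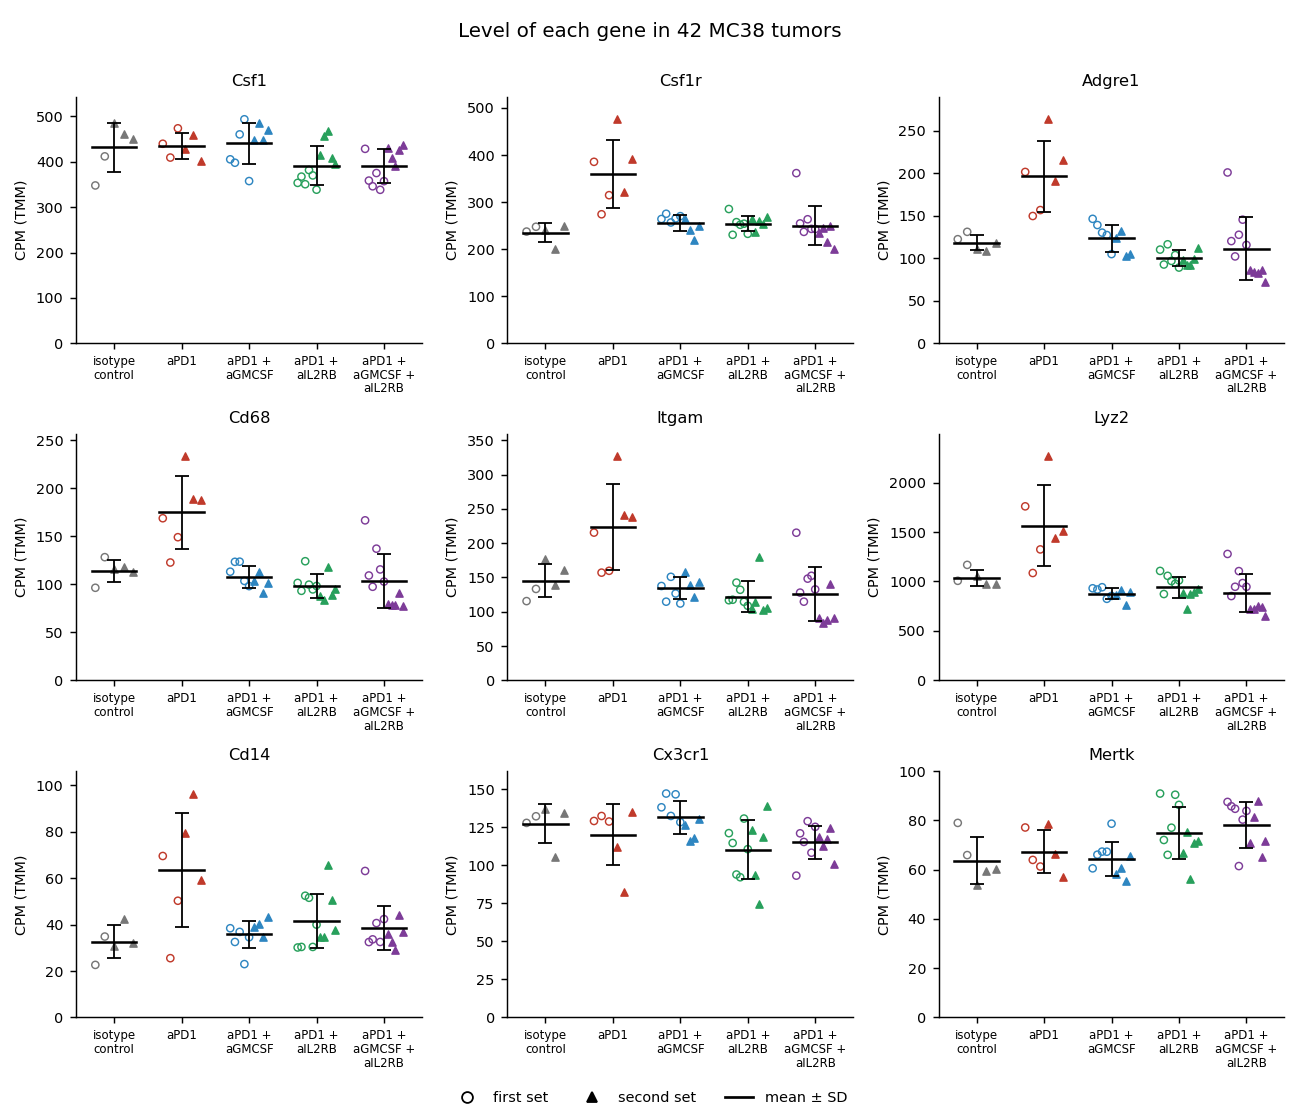
Level of each of the 9 genes (CPM, TMM-scaled, axis from 0) in every tumor by treatment group. Open circles are the first set, filled triangles the second set, and black bars the mean ± SD. The mean of the aPD1 tumors is the highest of the 5 groups for Csf1r, Adgre1, Cd68, Itgam, Lyz2 and Cd14, though single tumors overlap other groups: 2 of the 9 genes have no overlap with isotype control, and none is free of overlap with aPD1 + aGMCSF + aIL2RB.

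Among the identity markers, Adgre1 (ENSMUSG00000004730, chr17:57358691-57483527) encodes the adhesion receptor F4/80, which marks mature mouse macrophages. It measured 122, 131, 111, 109 and 118 CPM in isotype control, and 149.6, 196 and 263 CPM at the lowest, median and highest with aPD1. The 2 groups did not overlap, and Adgre1 was 1.66-fold higher with aPD1 (log2 fold change 0.73 ± 0.16 SE, adjusted p = 0.00494). Csf1r and Adgre1 were the 2 members whose groups did not overlap here, against 3.38% of all genes with every aPD1 tumor above every isotype control tumor. Cd68 (ENSMUSG00000018774, chr11:69664213-69666153), a lysosomal membrane glycoprotein of phagocytes, measured 96.4, 128, 116, 118 and 113 CPM in isotype control and 123, 179 and 233 CPM at the lowest, median and highest with aPD1. Only aPD1 replicate 2, the lowest, fell within the isotype control range, and the log2 fold change was 0.62 ± 0.15 SE (adjusted p = 0.00765).

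Itgam (ENSMUSG00000030786, chr7:128062640-128118491), the alpha chain of the integrin CD11b/CD18 that is carried by macrophages, monocytes and neutrophils alike, measured 116, 133, 177, 139 and 161 CPM in isotype control. With aPD1 its lowest, median and highest values were 157, 226 and 326 CPM. The groups overlapped at their edges and the log2 fold change of 0.62 ± 0.18 SE had the weakest support of the 6 (adjusted p = 0.0269). Its call was lost when any 1 of isotype control replicates 1, 2 or 4 or aPD1 replicates 4, 5 or 6 was left out, with adjusted p of 0.0526 to 0.117. The other 5 genes stayed called without any 1 tumor of these 2 groups.

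Lyz2 (ENSMUSG00000069516, chr10:117277331-117282321), the lysozyme of mouse myeloid cells, had the highest level of the 9. It measured 1007, 1168, 1059.7, 976 and 971 CPM in isotype control and 1086, 1471 and 2265 CPM at the lowest, median and highest with aPD1 (log2 fold change 0.59 ± 0.14 SE, adjusted p = 0.0057). Only the lowest aPD1 tumor, replicate 2, lay within the isotype control range. Cd14 (ENSMUSG00000051439, chr18:36725067-36726798), which hands endotoxin to the TLR4 receptor complex, measured 22.7, 34.9, 30.9, 42.2 and 32.2 CPM in isotype control and 25.6, 64.5 and 96.5 CPM at the lowest, median and highest with aPD1. It had the largest fitted change, 1.94-fold (log2 fold change 0.96 ± 0.22 SE, adjusted p = 0.00621), with 5 of 6 aPD1 tumors above every isotype control tumor. In aPD1 replicate 2 Cd14 sat at 25.6 CPM, below 4 of the isotype control tumors.

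Cx3cr1 (ENSMUSG00000052336, chr9:119901616-120069879), the receptor for fractalkine on monocytes, microglia and some tissue macrophages, measured 128, 132, 137, 105 and 134 CPM in isotype control and 82.6, 129 and 135 CPM at the lowest, median and highest with aPD1 (log2 fold change -0.08 ± 0.11 SE, adjusted p = 0.7). Mertk (ENSMUSG00000014361, chr2:128698956-128802894), a receptor tyrosine kinase through which macrophages engulf dying cells, measured 79.0, 66.0, 54.0, 59.4 and 60.2 CPM in isotype control and 56.9, 65.2 and 78.5 CPM at the lowest, median and highest with aPD1 (log2 fold change 0.08 ± 0.11 SE, adjusted p = 0.699). The groups overlapped for both genes. The 95% interval of the log2 fold change ran from -0.31 to 0.14 for Cx3cr1, from -0.13 to 0.29 for Mertk and from -0.16 to 0.18 for Csf1. The fitted increases of the 6 called genes, 0.59 to 0.96, lay above all 3 intervals, a comparison that leaves out the SE of those increases.

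The same 6 genes fell, and no other member passed, in each of the 3 comparisons of a blocked group with aPD1. With the set as a term, Csf1 was also called lower in both groups given aIL2RB. Mertk was then called higher with both blocking antibodies. These 3 comparisons share the 6 aPD1 tumors with the comparison above, so the opposite sign in them is not independent of it. With aPD1 + aGMCSF, 8.75% of all genes were called lower than with aPD1, with aPD1 + aIL2RB 14.5%, and with aPD1 + aGMCSF + aIL2RB 14.3%. The median log2 fold change of the 9 members was -0.67, -0.61 and -0.72 in that order, beside medians of 0.0066, 0.0036 and 0.011 over all genes. Ptprc was called lower in the same 3 comparisons, with log2 fold changes of -0.81, -1.29 and -0.98.

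In the blocked groups Adgre1 levels lay nearer to those of isotype control. They were 102, 127 and 146 CPM at the lowest, median and highest with aPD1 + aGMCSF, 89.0, 98.1 and 116 CPM with aPD1 + aIL2RB, and 72.0, 102 and 201 CPM with aPD1 + aGMCSF + aIL2RB. The first 2 of these groups lay wholly below the aPD1 tumors, whereas aPD1 + aGMCSF + aIL2RB replicate 1, at 201 CPM, stood above the aPD1 median. Adgre1 fell by 0.67 ± 0.14 SE on the log2 scale with aGMCSF added (adjusted p = 0.00124), by 0.97 ± 0.13 SE with aIL2RB (adjusted p = 6.9e-07) and by 0.82 ± 0.13 SE with both (adjusted p = 1.16e-05).

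Lyz2 gave 759, 897 and 942 CPM with aPD1 + aGMCSF, 725, 921 and 1107 CPM with aPD1 + aIL2RB, and 646, 852 and 1278 CPM with both blocking antibodies. Its aPD1 + aGMCSF tumors all lay below the aPD1 tumors, and it fell by 0.83 ± 0.12, 0.73 ± 0.11 and 0.83 ± 0.11 SE on the log2 scale in the 3 comparisons (adjusted p = 2.92e-05, 3.1e-06 and 5.91e-07). Adgre1 and Lyz2 were the 2 members without overlap for aPD1 + aGMCSF (2.2% of all genes lay wholly below aPD1), Adgre1 was the 1 such member for aPD1 + aIL2RB (2.99% of all genes), and for aPD1 + aGMCSF + aIL2RB there were 0 (0.827% of all genes).

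Csf1r gave 219, 264 and 275 CPM with aPD1 + aGMCSF, 230.5, 254 and 285 CPM with aPD1 + aIL2RB, and 201, 243 and 362 CPM with both. In each blocked group only 1 tumor exceeded the lowest aPD1 tumor. The receptor fell by 0.49 ± 0.09, 0.50 ± 0.08 and 0.53 ± 0.08 SE on the log2 scale (adjusted p = 0.000276, 1.27e-05 and 7.79e-06), the smallest fitted fall of the 6 genes in each comparison.

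Cd68, Itgam and Cd14 also had their highest mean with aPD1. Cd68 averaged 175 ± 38 CPM (SD, n = 6) with aPD1 and 108 ± 11.2 (n = 9), 98.6 ± 12.3 (n = 11) and 103 ± 28.2 CPM (n = 11) in the blocked groups, falls of 0.70, 0.83 and 0.77 on the log2 scale (adjusted p = 0.000311, 1.86e-06 and 7.39e-06). Itgam averaged 223 ± 62.7 CPM with aPD1 and 134 ± 16.1, 122 ± 22.6 and 126 ± 39 CPM in the blocked groups, with adjusted p of 0.00144, 1.7e-05 and 5.11e-05. Cd14 averaged 63.4 ± 24.5 CPM with aPD1 and 35.8 ± 5.78, 41.6 ± 11.7 and 38.4 ± 9.44 CPM in the blocked groups (adjusted p = 0.0027, 0.00931 and 0.00215). The Cd14 call with aIL2RB added rested on aPD1 replicate 5, its highest tumor, without which the adjusted p was 0.0701.

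**Figure D2:**
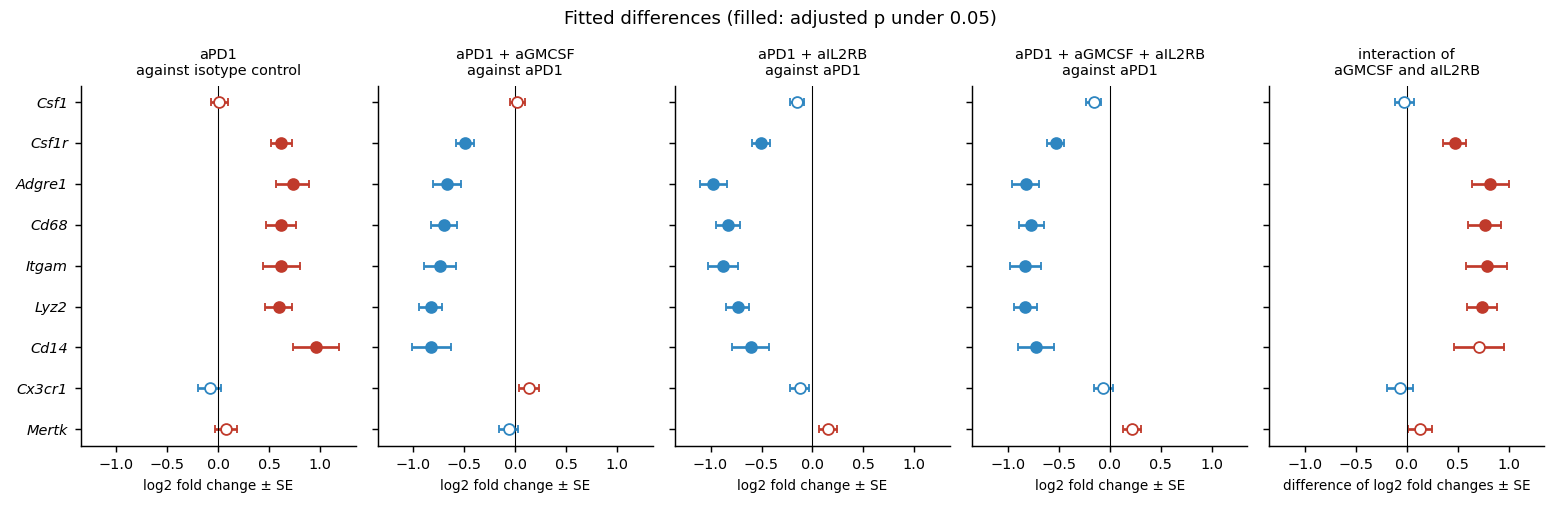
Fitted log2 fold change ± SE of the 9 genes in 4 comparisons, and in the last panel the interaction of the 2 blocking antibodies. Filled points have an adjusted p under 0.05. Csf1r, Adgre1, Cd68, Itgam, Lyz2 and Cd14 lie right of 0 with aPD1 and left of 0 when either or both blocking antibodies were added.

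Csf1 averaged 435 ± 27.9 CPM (SD, n = 6) with aPD1, 441 ± 45.1 (n = 9) with aPD1 + aGMCSF, 392 ± 42.5 (n = 11) with aPD1 + aIL2RB and 391 ± 37.2 CPM (n = 11) with both. Its log2 fold change against aPD1 was 0.02 ± 0.08, -0.15 ± 0.07 and -0.16 ± 0.07 SE, with adjusted p of 0.907, 0.115 and 0.106. Csf1 was also 0.17 ± 0.04 SE higher on the log2 scale in the second set than in the first (adjusted p = 0.00042), and with the set as a term in the fit the 2 comparisons with an aIL2RB group passed the test (log2 fold change -0.15 in both, adjusted p = 0.04 and 0.0384). With aPD1 + aIL2RB against aPD1 the call for Csf1 was made in 4 of 11 alternative settings, and its log2 fold change was -0.29 within the first set (adjusted p = 0.023) and -0.017 within the second (adjusted p = 0.873).

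Mertk had its highest mean levels in the 2 groups given aIL2RB. It averaged 63.7 ± 9.56 CPM (SD, n = 5) in isotype control, 67.4 ± 8.69 (n = 6) with aPD1, 64.4 ± 6.84 (n = 9) with aPD1 + aGMCSF, 74.9 ± 10.7 (n = 11) with aPD1 + aIL2RB and 78.2 ± 9.32 CPM (n = 11) with both. It was the only member called in aPD1 + aGMCSF + aIL2RB against isotype control (log2 fold change 0.30 ± 0.10 SE, adjusted p = 0.0425), where 5.69% of all genes were called higher, and this call was lost in 11 of the 16 fits that left out 1 tumor (adjusted p of 0.0549 to 0.145). Against aPD1 + aGMCSF its log2 fold change was 0.28 ± 0.08 SE with an adjusted p of 0.0505, and 0.29 with an adjusted p of 0.0163 when the set was a term. Against aPD1 the log2 fold change with both blocking antibodies was 0.22 ± 0.09 SE (adjusted p = 0.0715), and it passed in 3 of 11 alternative settings, with the set as a term among them (0.21, adjusted p = 0.0482), and in 4 of 17 fits that left out 1 tumor. Cx3cr1 averaged 127 ± 12.7, 120.0 ± 20, 131 ± 11.0, 110.1 ± 19.4 and 115 ± 10.8 CPM across the groups in the same order, with no call in any of the 10 pairs.

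No member was called in aPD1 + aGMCSF against isotype control (0.0% of all genes, with 0 of 9 members and 938 of all genes at an unadjusted p under 0.05) or in aPD1 + aIL2RB against isotype control (3.2% of all genes, with 2 members and 3065 of all genes at an unadjusted p under 0.05). The same held for aPD1 + aIL2RB against aPD1 + aGMCSF (1.52% of all genes, with 4 members and 2288 of all genes at an unadjusted p under 0.05), for aPD1 + aGMCSF + aIL2RB against aPD1 + aGMCSF (2.13%, with 3 members and 2933 genes) and for aPD1 + aGMCSF + aIL2RB against aPD1 + aIL2RB (0.00591%, with 0 members and 1212 genes). In the second set alone Adgre1 and Cd68 were called lower and Mertk higher with both blocking antibodies than with aPD1 + aGMCSF, where 7.68% of all genes were called. With DESeq2 the counts of members called in these 5 comparisons were 0, 0, 0, 1 and 0, beside 4, 737, 401, 564 and 1 of all 16932 genes. In these comparisons the largest fitted difference of any member was 0.35 on the log2 scale, for Cd14 with aPD1 + aIL2RB over isotype control (SE 0.20, adjusted p = 0.35). Though not called, Lyz2 with aPD1 + aGMCSF (at most 942 CPM) lay wholly below isotype control (at least 971 CPM). The share of all genes without overlap was not taken for this pair.

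The interaction of the 2 blocking antibodies was called for 5 of the 6 genes that moved. The aPD1 tumors enter this value too. The interaction, the effect of adding aGMCSF to aPD1 + aIL2RB minus the effect of adding it to aPD1, was above 0 and called for 5 members: Adgre1 (0.82 ± 0.18 SE, adjusted p = 0.00498), Itgam (0.78 ± 0.20, adjusted p = 0.0136), Cd68 (0.76 ± 0.16, adjusted p = 0.00419), Lyz2 (0.74 ± 0.15, adjusted p = 0.00265) and Csf1r (0.47 ± 0.11, adjusted p = 0.00903). Of all genes, 5.29% were called with a positive interaction. Cd14 had an interaction of 0.71 ± 0.25 SE with an adjusted p of 0.063, and Csf1, Cx3cr1 and Mertk lay between -0.07 and 0.13. Within the first set alone 0 of the 6 genes were called (0.37 to 0.80, adjusted p of 0.0588 to 0.384), where 0.0862% of all genes were called with a positive interaction. In the second set 4 were (not Itgam or Cd14), where 4.14% of all genes were called so. The Itgam call was lost without aPD1 replicate 4 (adjusted p = 0.0567), and the call for Ptprc was of the same sign (1.12 ± 0.28 SE, adjusted p = 0.01).

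The sets weighed on these comparisons. Within the second set alone (3 aPD1 and 3 isotype control tumors) all 6 genes were called with aPD1, with log2 fold changes of 0.77 to 1.16, where 9.33% of all genes were called higher. Within the first set (3 and 2 tumors) none was, with log2 fold changes of 0.35 to 0.75 and adjusted p of 0.232 or more, and of all genes 0.00575% were called higher there. All 6 pointed the same way in both sets, and no member's aPD1 effect differed between the sets (adjusted p of 0.349 or more).

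With both blocking antibodies against aPD1, the difference between the sets did pass. In the second set the 6 genes fell by 0.81 to 1.46 on the log2 scale and all were called, with 16.7% of all genes called lower. In the first set they had log2 fold changes of -0.45 to -0.25, and Lyz2 alone was called (adjusted p = 0.0285), with 2.45% of all genes called lower. The second set minus the first was -1.12 for Adgre1, -1.05 for Cd68, -1.19 for Itgam, -0.83 for Lyz2 and -0.51 for Csf1r (adjusted p = 0.000812, 0.000812, 0.00242, 0.00266 and 0.0312), and 6.55% of all genes were called lower in this test. Against aPD1 + aIL2RB the same test called Adgre1 alone of the members (-0.68, adjusted p = 0.0243) and 1.67% of all genes lower. For both blocking antibodies against aPD1, the second set minus the first was also called for Ptprc (-1.53, adjusted p = 0.00252). Adgre1 in tumors given both blocking antibodies averaged 135 ± 35.2 CPM (SD, n = 6) in the first set and 82.3 ± 5.99 CPM (n = 5) in the second, with no overlap between the sets. With aPD1 + aIL2RB against aPD1 the fall was called in both sets for 5 of the 6 genes (not Cd14 in the first set, adjusted p = 0.457, where Csf1 passed instead), beside 8.84% of all genes called lower in the first set and 13.3% in the second. With aPD1 + aGMCSF against aPD1 it was called in the second set for all 6 (11.1% of all genes lower) and in the first for Lyz2 alone (0.069% of all genes lower).

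**Figure D3:**
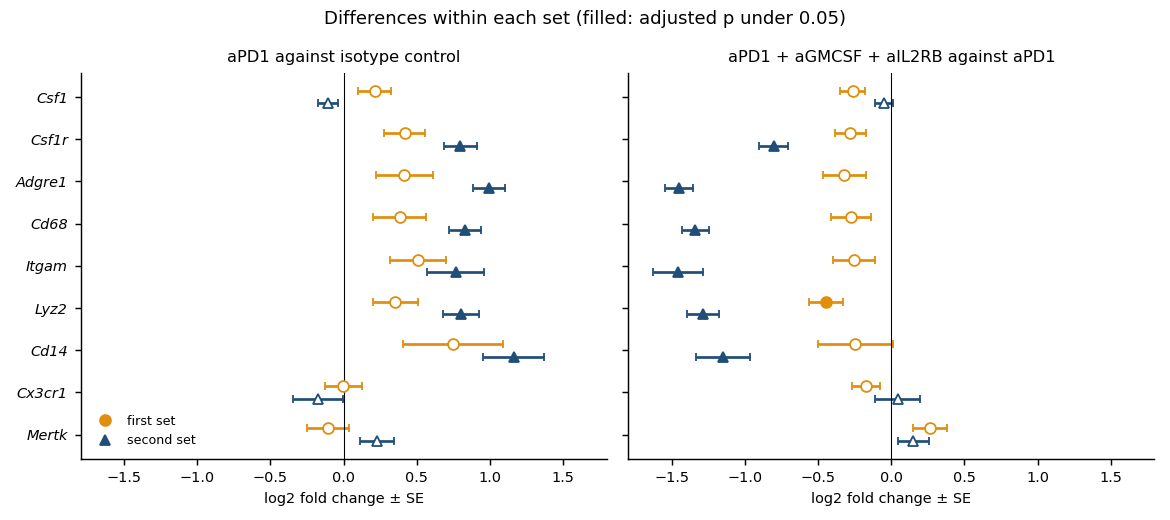
Log2 fold change ± SE of the 9 genes within the first set (circles) and the second set (triangles), for aPD1 against isotype control and for aPD1 + aGMCSF + aIL2RB against aPD1. Filled points have an adjusted p under 0.05. The second set shows the larger differences for Csf1r, Adgre1, Cd68, Itgam, Lyz2 and Cd14, and the filled circle of the first set is Lyz2 on the right.

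Within the second set, tumors given both blocking antibodies also lay below isotype control for Adgre1 (log2 fold change -0.46), Cd68 (-0.51), Itgam (-0.69) and Lyz2 (-0.49), with adjusted p of 0.00386, 0.00148, 0.0122 and 0.00564, while Mertk lay above it (0.38, adjusted p = 0.0244), and 11.4% of all genes were called in either direction. In the first set the same 4 genes had log2 fold changes of 0.09, 0.11, 0.25 and -0.10 with adjusted p of 0.466 or more, and no member's difference between the sets passed the test here. Between the sets themselves, with treatment in the model, 25.1% of all genes were called and 3 of the 9 members: Csf1, given above, Mertk (log2 fold change -0.17 ± 0.05 SE, adjusted p = 0.0105) and Lyz2 (-0.17 ± 0.06 SE, adjusted p = 0.0475). Between the sets, 4 of 5 epithelial markers (median log2 fold change 4.09 over the 5) and 3 of 3 adipocyte markers (2.03) were higher in the second, and 4 of 6 T and NK cell markers were lower (-0.91 over the 6). Their part in the differences between the sets was not tested. The Lyz2 call was lost in 29 of the 42 fits that left out 1 tumor.

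A single tumor given both blocking antibodies, replicate 1, carried macrophage gene levels like those of the aPD1 group. It measured 201 CPM for Adgre1, 362 for Csf1r, 167 for Cd68, 215 for Itgam, 1278 for Lyz2 and 63.1 for Cd14, in each case the highest of its 11 tumors. Its Ptprc, at 368 CPM, was also the highest of the 11, its ratio of Adgre1 to Ptprc counts, at 0.546, the lowest, and its Cx3cr1, at 93.2 CPM, the lowest. Among the aPD1 tumors, replicate 4 was highest for Csf1r, Adgre1, Cd68, Itgam and Lyz2, and replicate 2 was lowest for the same 5 genes and for Cd14. Without aPD1 replicate 4 the call for Itgam over isotype control was lost and the other 5 stood, and without aPD1 replicate 2 all 6 stood.

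Part of the wider CSF1 receptor pathway and the macrophage transcription factors passed the test with aPD1. Of 14 further genes of this list, all of which were tested, 6 rose with aPD1 over isotype control, 1 fell and 7 did not pass, with a median log2 fold change of 0.52. Among those that rose were Spi1 (0.62, adjusted p = 0.00863), the monocyte and dendritic cell factor Irf8 (0.84, adjusted p = 0.0109), the signaling adaptor Tyrobp (0.68), the Src-family kinase Lyn (0.62), and Inpp5d (0.63), which encodes the phosphatase SHIP1. The gene that fell was Il34, the other ligand of CSF1R, from 52.7 to 42.7 CPM (log2 fold change -0.31, adjusted p = 0.0216). The same 6 fell in each blocked group against aPD1, joined by Cebpa, among others, in both groups given aIL2RB, while Il34 was lower than in isotype control with aPD1 + aIL2RB (-0.29, adjusted p = 0.0262) and with both blocking antibodies (-0.33, adjusted p = 0.00654). With aPD1 + aGMCSF its log2 fold change against isotype control was -0.23, with an adjusted p of 0.787.

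Among 12 ligands and partners of the members, 4 rose with aPD1 and 0 fell. They were Itgb2, the CD18 chain that pairs with CD11b (0.82, adjusted p = 0.037), its ligand Icam1 (0.94, adjusted p = 0.00658), Lbp, which delivers endotoxin to CD14 (1.17, adjusted p = 0.0283), and Gas6, a ligand of MERTK and AXL (1.04, adjusted p = 0.0037). Itgb2, Icam1 and Lbp fell in each blocked group against aPD1. Gas6 fell with aPD1 + aGMCSF (-0.61, adjusted p = 0.025) but remained above isotype control with both blocking antibodies (0.92, adjusted p = 0.00441), where it averaged 18.3 CPM against 9.66. Gas6 was also called above isotype control with aPD1 + aIL2RB. Cx3cl1, the ligand of CX3CR1, was low (3.94 to 4.57 CPM on average) and was called in 0 of the 10 pairs.

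Of 19 other monocyte and macrophage markers, 14 rose with aPD1, 0 fell and 5 did not pass, and the median log2 fold change was 0.77. The sialoadhesin gene Siglec1 (1.22, adjusted p = 0.000356), the high-affinity Fc receptor gene Fcgr1 (1.17, adjusted p = 0.00222), the 3 C1q genes (0.59 to 0.66) and the monocyte genes Ly6c2 (1.91, adjusted p = 0.0465) and Plac8 (1.42, adjusted p = 0.0221) were among them. Against aPD1, 14, 15 and 14 of the 19 fell with aGMCSF, aIL2RB and both. The scavenger receptor gene Cd163, like Mertk, took another course: with both blocking antibodies it averaged 6.91 CPM against 2.74 in isotype control (log2 fold change 1.34, adjusted p = 0.0102) and 3.16 with aPD1 + aGMCSF (1.13, adjusted p = 0.0171). Cd163 was also called higher than in isotype control with aPD1 + aIL2RB. These lists were chosen with results of these data known, so their counts describe the lists only.

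Markers of other cells were summed in each tumor. Of the tested markers, 0 of 6 for T and NK cells, 0 of 6 for dendritic cells, 0 of 3 for B cells and 1 of 5 for neutrophils (Csf3r, log2 fold change 1.49, adjusted p = 0.00211) were called higher with aPD1 over isotype control, and all 6 for T and NK cells were called lower in both groups given aIL2RB than with aPD1. Of the 5 neutrophil markers 4 were called lower than with aPD1 in aPD1 + aGMCSF (S100a9, Csf3r, Cxcr2 and Mmp8), 1 in aPD1 + aIL2RB and 3 with both. Summed over 6 T and NK cell markers, the level was 25.3 to 41 CPM in isotype control, 48.8 to 97.8 with aPD1, 19.6 to 53.2 with aPD1 + aGMCSF, 1.97 to 17.6 with aPD1 + aIL2RB and 0.462 to 46.1 with both. Summed over 8 neutrophil markers it was 10.5 to 14.7 CPM in isotype control, 17.8 to 44.9 with aPD1 and 5.11 to 30.3 in the blocked groups, and the defining marker Ly6g had no count in any tumor of 4 groups, with aPD1 + aIL2RB the exception. For 6 dendritic cell markers the range was 27.9 to 39.6 CPM over all 5 groups, for 3 B cell markers 0.240 to 7.39 CPM and for 5 epithelial markers 0.263 to 28.7 CPM. Single markers within these sums were called against aPD1. Zbtb46 was higher in each blocked group, while Xcr1, Batf3 and Cdh1 were lower in both groups given aIL2RB. Ms4a1 was lower with aPD1 + aIL2RB and Epcam with both blocking antibodies. Of 5 fibroblast markers Col1a1 and Postn rose and Dcn fell with aPD1, and their sum was 1307 to 1714 CPM in isotype control, 1383 to 2886 with aPD1 and 1538 to 2719 in the blocked groups. The 3 skeletal muscle markers Acta1, Myh4 and Ckm were all called higher with aPD1 over isotype control (median log2 fold change 4.37) and lower with aPD1 + aIL2RB than with aPD1 (median -3.02). Their sum was 0.140 to 17.5 CPM in isotype control, 0.344 to 533 with aPD1 and 0.260 to 170.2 in the blocked groups. Of 3 endothelial markers Pecam1 and Kdr rose with aPD1, and the sum was 108 to 149 CPM in isotype control, 123 to 182 with aPD1 and 119.8 to 194 in the blocked groups. For 3 adipocyte markers it was at most 7.54 CPM. The 9 members themselves, the ligand gene Csf1 included, were summed in the same way, with none at 0 in any group. Their sum, which restates the levels given above, was 2156 to 2453 CPM in isotype control, 2420 to 4261 with aPD1 and 1731 to 2895 in the blocked groups. The part that any of these cell types has in the levels of the 6 genes was not tested.

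To see whether the receptor moved apart from its ligand, the ratio of Csf1 to Csf1r counts was taken in each tumor. It was 1.47, 1.66, 2.02, 2.31 and 1.81 in isotype control and 0.899, 1.28 and 1.51 at the lowest, median and highest with aPD1. Only the lowest isotype control tumor lay within the aPD1 range, and the mean log2 ratio differed by -0.58 ± 0.17 SE (exact two-sided permutation test, p = 0.013, adjusted over 20 ratio tests 0.0866). With aPD1 + aGMCSF the ratio was 1.32, 1.79 and 2.05 at the lowest, median and highest, 0.49 ± 0.15 higher than with aPD1 on the log2 scale (exact permutation p = 0.0038, adjusted 0.0759). None of the 10 pairs passed after adjustment, and the difference from aPD1 was 0.33 (exact permutation p = 0.0113, adjusted 0.0866) with aPD1 + aIL2RB and 0.36 (exact permutation p = 0.0192, adjusted 0.0873) with both.

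Adgre1 was likewise divided by Ptprc, to set a macrophage gene against all leukocytes. The ratio averaged 0.747 ± 0.0835 (SD, n = 5) in isotype control, 0.64 ± 0.072 (n = 6) with aPD1, 0.705 ± 0.109 (n = 9) with aPD1 + aGMCSF, 0.809 ± 0.147 (n = 11) with aPD1 + aIL2RB and 0.756 ± 0.135 (n = 11) with both. The largest difference, 0.32 ± 0.11 SE on the log2 scale between aPD1 + aIL2RB and aPD1, had an exact two-sided permutation p of 0.0218 and an adjusted p of 0.0873, so none of the 10 pairs passed.

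**Figure D4:**
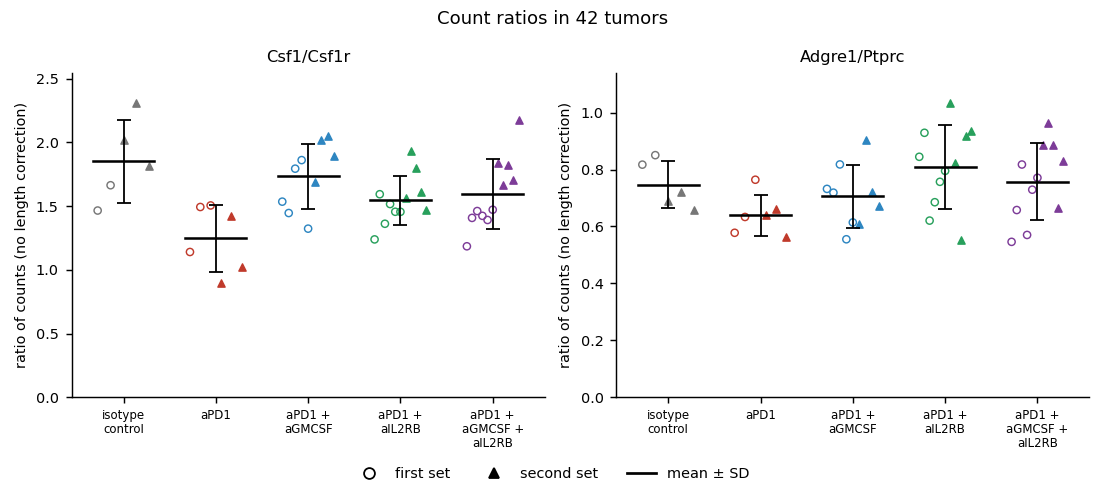
Ratio of Csf1 to Csf1r counts and of Adgre1 to Ptprc counts in every tumor by treatment group, with the mean ± SD; counts are not divided by gene length. Circles are the first set and triangles the second. The aPD1 tumors have the lowest mean in both panels, and no pair of groups passed after adjustment.

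Within groups, tumors high for one of the 6 genes tended to be high for the others. After the mean of each group within each set was removed, the 15 pairs among Csf1r, Adgre1, Cd68, Itgam, Lyz2 and Cd14 had Pearson correlations of log2 CPM from 0.32 to 0.80, with a median of 0.64 over the 42 tumors. The 3 pairs among Csf1, Cx3cr1 and Mertk had correlations from -0.36 to 0.08. The 18 pairs of 1 gene from each group of genes ran from -0.54 (Cd14 and Cx3cr1) to 0.50 (Csf1 and Itgam), with a median of 0.12, so that the highest of them lay above the lowest pairs among the 6, Adgre1 with Cd14 (0.32) and Csf1r with Cd14 (0.35). These values describe tumors that share groups, libraries and scaling, and no p-value is attached to them.

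**Figure D5:**
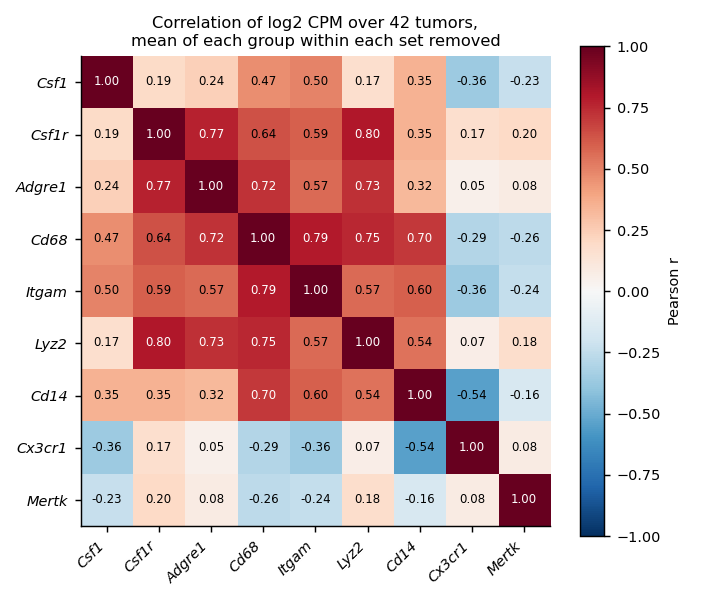
Pearson correlation of log2 CPM between the 9 genes over 42 tumors, after the mean of each treatment group within each set was subtracted. Blue is negative and red positive. Csf1r, Adgre1, Cd68, Itgam, Lyz2 and Cd14 form a block of positive values from 0.32 to 0.80, and the lowest value is -0.54 for Cd14 with Cx3cr1.

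The genes whose residual pattern was nearest to that of each member, among 12433 genes of sufficient level, were found in the same way. Itgam was followed most closely by Itgb2, its integrin partner (r = 0.92), Csf1r by Inpp5d (r = 0.89) and Cd14 by Clec4e, a C-type lectin receptor of activated macrophages (r = 0.88). Adgre1 was nearest to Rassf4 (0.87), Cd68 to Gm49342 (0.92) and then Fcer1g, the common Fc receptor chain (0.91), and Lyz2 to Cd84 (0.78). Csf1, Cx3cr1 and Mertk had weaker matches, Plekha3 (0.71), Tpcn1 (0.70) and Gm42428 (0.76).

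Levels of the 9 genes can be compared only per length. In isotype control the mean CPM per kilobase of exon was 787 ± 62.0 (SD, n = 5) for Lyz2, 90.9 ± 9.19 for Cd68, 81.7 ± 10.2 for Csf1, 40.7 ± 3.51 for Csf1r, 36.5 ± 2.77 for Adgre1, 28.9 ± 4.80 for Itgam, 28.3 ± 2.82 for Cx3cr1, 18.8 ± 4.08 for Cd14 and 14.7 ± 2.21 for Mertk. The neighbours Cd68 and Csf1, and Itgam and Cx3cr1, differed by less than the larger of their SDs. The lengths join the exons of all annotated transcripts, so a gene with an unused long transcript is set too low.

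Of the 9 genes, 3 share reads with a neighbour. Lyz2 lies beside its close copy Lyz1 on chromosome 10, and the first 90 coding bases of both are printed because they show how alike the 2 are, in build GRCm38 from the GENCODE transcripts, minus strand, with the bases that differ in capitals.
Lyz2, chr10:117282153-117282242: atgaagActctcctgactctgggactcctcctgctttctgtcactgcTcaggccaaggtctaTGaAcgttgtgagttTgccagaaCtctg
Lyz1, chr10:117292749-117292838: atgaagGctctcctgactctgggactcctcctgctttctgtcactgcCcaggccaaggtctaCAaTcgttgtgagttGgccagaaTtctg
Over 444 coding bases the 2 differ at 22 and are 95% identical, and the longest run without a difference is 118 bases. The counts of Lyz2 were not whole in 35 tumors, and in all 35 the sum with Lyz1 was whole. Lyz1 received at most 0.704% of the Lyz2 count in any tumor, and its log2 fold change with aPD1 was 0.06 (adjusted p = 0.955). Csf1r overlaps the end of Hmgxb3, which lies on the opposite strand. Its counts were not whole in 40 tumors, in each of which the sum with Hmgxb3 was whole, and Hmgxb3 had a median of 876 counts against 4880.3 for Csf1r. Whether strand was used in counting is not given in the sources used here, so the split between these 2 genes is uncertain. Itgam overlaps the gene model Gm49368, which held at most 32.7 counts. Its counts were not whole in 16 tumors, and in 7 of these the sum with Gm49368 was whole, so the split of reads in the others is not accounted for by this gene model alone.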

How the data were processed

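Poly(A) RNA of 42 MC38 tumors, labelled as biological replicates, was sequenced as paired reads by the authors. They aligned the reads with Bowtie 1.2.3 (version from the submitters' processing notes) to transcriptomes of the founder strains built on GENCODE release M23, and deposited expected counts per gene, of which 15.2% of values are not whole because reads were shared between genes. Counts were rounded here. Names, lengths and coordinates came from GENCODE M21 of the same build, and 26629 of 26811 identifiers matched. Genes with at least 10 counts in enough tumors of a group (edgeR's filterByExpr, total of at least 15) were scaled by TMM and fitted with edgeR 4.0.16 (R 4.3.3) by the quasi-likelihood test, with all 42 tumors and 5 groups in 1 fit and Benjamini-Hochberg adjustment over 16932 genes in each of 12 comparisons. SE is the log2 fold change over the root of the F statistic. DESeq2 1.42.0, the tool the study used, served as an alternative. Count ratios were tested in Python 3.11.15 (scipy 1.17.1) by two-sided permutation, exact except for the pair of groups of 11, where 100000 resamples were drawn. The members and gene lists were chosen with earlier results of these data known. All 9 members were named, with Ptprc and the listed genes, and for likeness the 3 genes of highest correlation per member were taken. The script was tested on simulated counts. Counting error at these totals is small beside the spread between tumors. The ribosomal RNA share (5 genes) ran from 1.72% to 8.55% in isotype control, from 4.57% to 17.9% with aPD1 (highest in replicate 5) and from 2.86% to 12.6% in the blocked groups. With these 5 genes left out, 1475 of 16933 genes were called for aPD1 against isotype control, beside 1475 of 16932 with them. How this share bears on the levels of the members was not tested. Some genes of the lists are counted but not reported here by name.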

Additional observations from a re-analysis of the deposited data

Results flagged for a closer look

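Csf1r stood at 199.6 CPM in isotype control replicate 4, the lowest of the 5 isotype control tumors, with a gap to the next of 0.768 of the group's range. Of the 27 pairs of gene and group looked at in this way it was the only one so marked, and chance marks about 1 in 20. Without this tumor Csf1r remained called with aPD1.

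The difference of aPD1 + aGMCSF + aIL2RB from aPD1 was not the same in both sets, by a test of the second set minus the first over all genes (edgeR, Benjamini-Hochberg adjustment). The values were -1.19 for Itgam, -1.12 for Adgre1, -1.05 for Cd68, -0.83 for Lyz2 and -0.51 for Csf1r on the log2 scale. Against aPD1 + aIL2RB, Adgre1 differed between the sets by -0.68 (adjusted p = 0.0243). The labels do not say what separates the sets. In the second set 4 of 5 epithelial and 3 of 3 adipocyte markers were called higher than in the first and 4 of 6 T and NK cell markers lower (median log2 fold changes of 4.09, 2.03 and -0.91), and their part in these values was not tested.

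The effect of aGMCSF on a background of aIL2RB minus its effect without it was 0.82 for Adgre1, 0.78 for Itgam, 0.76 for Cd68, 0.74 for Lyz2 and 0.47 for Csf1r on the log2 scale, each called over all genes. With aIL2RB present, adding aGMCSF changed none of the 9 genes past the threshold.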

How the results depend on the processing

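The count of members called changed in several comparisons when each set was fitted alone. In aPD1 + aIL2RB against isotype control it stayed at 0 in both sets. Within the first set it was 0 for aPD1 against isotype control, 1 for aPD1 + aGMCSF and 1 for aPD1 + aGMCSF + aIL2RB against aPD1, 0 for the interaction, 0 for aPD1 + aGMCSF + aIL2RB against isotype control and 1 for aPD1 + aIL2RB against aPD1 + aGMCSF. Fewer tumors enter these fits, and of all 17400 genes 2, 27, 934, 34, 338 and 301 were called, in the same order. Within the second set the count of members was 5 for aPD1 + aGMCSF + aIL2RB against isotype control (1912 of 16728 genes, against 1726 of 16932 over both sets). It was 3 against aPD1 + aGMCSF (1285 of 16728 genes, against 360 of 16932 over both sets). The call for Mertk over isotype control was lost, leaving 0 members, with library size only, with a total of at least 5 counts or with only the groups compared in the fit. Over all genes these settings called 1210 of 16932, 1337 of 26110 and 1401 of 15851. Against aPD1 + aGMCSF, aPD1 + aGMCSF + aIL2RB had 1 member called with DESeq2, with at least 10 counts in every tumor or with only the groups compared, and 2 with the set as a term, and aPD1 + aIL2RB had 1 with only the groups compared. Over all genes the calls were 564 of 16932, 356 of 12497, 564 of 15213, 757 of 16932 and 476 of 15147, in that order. Leaving out 1 tumor at a time gave 5 to 6 members for aPD1 against isotype control, 6 to 6, 5 to 7 and 6 to 7 for the 3 blocked groups against aPD1, 4 to 6 for the interaction, 2 to 4 between sets, and 0 to 1 for aPD1 + aGMCSF + aIL2RB against isotype control and against aPD1 + aGMCSF.

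With the replicate number as a block, 2 members were called in aPD1 + aIL2RB against isotype control, 2 in aPD1 + aGMCSF + aIL2RB against isotype control and 2 against aPD1 + aGMCSF. Of all 16932 genes the block called 2235, 3941 and 914 in these comparisons, against 542, 1726 and 360 without it. The numbers do not pair the tumors. Same-numbered tumors of different groups had correlations of their deviations from -0.17 to 0.19 over 67 pairs, 16 of them over 0.1, and 8 tumors matched best with their own number. The block turned Csf1 in aPD1 + aGMCSF against aPD1 to -0.051 and the Adgre1 to Ptprc ratio of aPD1 + aGMCSF + aIL2RB against isotype control to -0.18.

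Values near 0 changed sign. With library size only, Csf1 and Mertk with aPD1 were -0.071 and -0.0030, and Cx3cr1 with both blocking antibodies against aPD1 was 0.0025. With at least 10 counts in every tumor, Csf1 in aPD1 + aGMCSF against aPD1 was -0.0050. Within the first set that value was -0.059, Mertk there was 0.012 and Mertk with aPD1 was -0.11. Within the second set Csf1 with aPD1 was -0.11 and Cx3cr1 with both blocking antibodies against aPD1 was 0.043. Leaving out 1 tumor, Csf1 ran from -0.057 to 0.057 with aPD1 and from -0.012 to 0.053 for aPD1 + aGMCSF against aPD1.

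The log2 ratio of Csf1 to Csf1r within the first set was 0.016 for aPD1 + aGMCSF against isotype control and -0.047 for aPD1 + aGMCSF + aIL2RB against aPD1 + aIL2RB, which ran from -0.010 to 0.077 on leaving out 1 tumor. That of Adgre1 to Ptprc within the first set was -0.12 for aPD1 + aIL2RB and -0.31 for aPD1 + aGMCSF + aIL2RB against isotype control and -0.014 for the latter against aPD1 + aGMCSF. Within the second set it was 0.064 for aPD1 + aGMCSF against isotype control and 0.0085 for aPD1 + aGMCSF + aIL2RB against aPD1 + aIL2RB. Leaving out 1 tumor gave -0.041 to 0.052 for aPD1 + aGMCSF + aIL2RB against isotype control. A ratio passed in 2 such fits: Csf1 to Csf1r for aPD1 + aGMCSF against aPD1 (0.40 to 0.55, exact permutation test, adjusted p = 0.0333 without aPD1 + aGMCSF replicate 5) and Adgre1 to Ptprc for aPD1 + aIL2RB against aPD1 (0.28 to 0.37, adjusted p = 0.045 without aPD1 + aIL2RB replicate 9).

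Scaling by library size only turned the calls over all genes from 1045 higher and 430 lower to 769 and 1174 for aPD1 against isotype control, from 807 and 1482 to 1402 and 1120 for aPD1 + aGMCSF against aPD1, from 2198 and 2449 to 3125 and 1981 for aPD1 + aIL2RB against aPD1, and from 2215 and 2419 to 3279 and 1879 for aPD1 + aGMCSF + aIL2RB against aPD1. The 6 members kept their calls and directions under it in all 4. The cause of these shifts was not tested.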
